A study of Oryza sativa with 12 samples.

Results

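Rice plants of an f3h line were compared with the wild type in leaves and in roots, and the genes described here are those whose transcripts were more abundant in f3h in both organs. A gene was a member when its mean level was at least 1 CPM (the read count as a share of the library total, on the usual scale for CPM) in all 4 groups and when the mean in f3h, with 0.5 CPM added to each mean, was at least 2 times that in the wild type, both in leaf and in root. The nicotianamine synthase genes NAS1 (Os03g0307300) and NAS2 (Os03g0307200) also met these criteria and were set aside by the rule. Of 37960 genes in the table, 16711 reached the level minimum, 732 of these reached the leaf ratio, 308 reached the root ratio and 42 reached both. These 42 were 5.74% of the leaf list and 13.6% of the root list, and 40 of them are described as members.

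Cultivar ZH11 served as the wild type (WT), and f3h stands for flavanone 3-hydroxylase, which acts early in the flavonoid pathway. The labels call the f3h plants a knockdown, whereas the design text speaks of CRISPR mutants, and the flavanone 3-hydroxylase locus that was targeted and the number of lines are not stated in the sources used here, so the targeted gene was not checked. All plants, of both genotypes, were 1 month old and had grown in Kimura nutrient solution at 28 °C with 12 h of light and 12 h of darkness. Leaf and root of each genotype gave 4 groups of 3 libraries. The labels do not say whether these came from separate plants, so p-values measure only the spread between libraries, which may be technical.

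Library totals were 23740780 to 37821918 counts. Summed levels of 23 photosynthesis genes were 98896 to 114756 CPM in WT leaf and 83008 to 86051 CPM in f3h leaf. Summed levels of 13 root genes were 4585 to 4662 CPM in WT root and 3903 to 3954 CPM in f3h root. By these sums each organ label matched its markers, and both sums were lower in f3h. In root, 9 of the 13 root genes fell in f3h and 0 rose, beside 25.4% and 24.9% of all genes tested. In root, the summed photosynthesis genes were 29.4 to 34.9 CPM in WT and 217 to 231 CPM in f3h. None of the 23 was at 0 in root. The root genes summed to 42.5 to 45.8 CPM in WT leaf and 44.4 to 48.8 CPM in f3h leaf, with 6 of the 13 at 0 in WT leaf and 2 in f3h leaf. Os03g0107300, at 1433 CPM in WT root, had 0 counts in leaf in WT and 2 in f3h. This gene and Os02g0745100, at 2021 CPM, were the highest of the 13 in WT root and weigh most in the sum. In f3h, Os11g0124300 was at 15.97 CPM in leaf and 15.07 CPM in root, and Os04g0401700 at 7.12 and 6.75 CPM. The other root genes had higher means in root than in leaf in f3h, as all 13 did in WT. WT leaf replicate 1 stood apart: its log2 CPM correlated with those of WT leaf replicates 2 and 3 at r = 0.969 and 0.967, against 0.987 to 0.993 within all other pairs of replicates.

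Metallothioneins are small cysteine-rich proteins that bind metal ions such as zinc and copper. Grasses take up iron with mugineic acid phytosiderophores, which are made from nicotianamine and thus from S-adenosylmethionine, and the methylthioadenosine left over is returned to methionine by the methionine salvage cycle. Bowman-Birk proteins inhibit serine proteases and are made in many plants after wounding or attack, and LOG enzymes release active cytokinins from their nucleotides.

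Of the 40 members, 3 had a name written for a gene list that the reference also held. They were MT4A (Os12g0570700), a metallothionein, RBBI3.3 (Os01g0124200), a Bowman-Birk trypsin inhibitor, and LOGL3 (Os03g0109300), a LOG-like enzyme. All 3 stood on lists added after the members had been seen. Another 5 stood on lists of pathway genes under names that the reference did not hold, and they are given by locus and list: Os01g0647200 and Os03g0237100 for iron acquisition, Os06g0486800 and Os09g0453800 for methionine salvage, and Os12g0628600 for pathogenesis-related genes. The reference was not searched for names of the remaining members, which are given by locus with no function. The 40 loci lay on 11 of the 12 chromosomes, with 8 on chromosome 1, 6 on chromosome 3, 5 on chromosome 5 and none on chromosome 11. These were 20%, 15%, 12.5% and 0% of members, beside 14.2%, 13.8%, 8.47% and 5.09% of genes at the level minimum.

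The members had been chosen by the leaf and root ratios, so these are given as a description with no test. The leaf ratio ran from 2.005 to 21.8 with a median of 2.74, against a median of 0.977 over all genes at the level minimum. The root ratio ran from 2.01 to 15.4 with a median of 2.33, against 1.05. The leaf ratio was the larger in 22 members and the root ratio in 18, and the ratios lay within 1.5 times of each other in 22. Both ratios were at least 4 in 5 members and at least 8 in 2, and both were below 3 in 18.

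**Figure D1:**
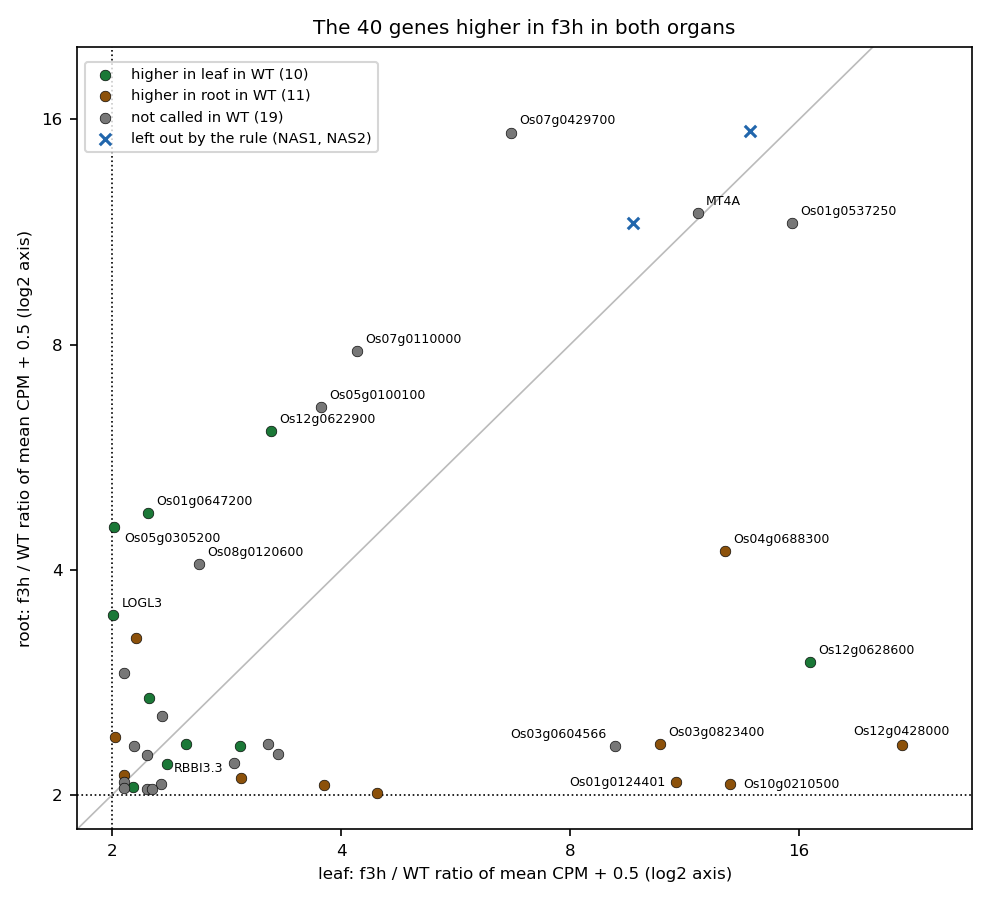
Ratio of the f3h mean to the WT mean in leaf (x axis) and in root (y axis), both on log2 axes, for the 40 members (points, coloured by the organ in which the gene was higher in WT) and for NAS1 and NAS2 (crosses). Dotted lines mark the ratio of 2 and the grey line equal ratios. MT4A and Os01g0537250 are the 2 members with both ratios above 8, and a row of members with leaf ratios of 9.15 to 21.8 has root ratios of 2.07 to 2.34.

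By edgeR's quasi-likelihood test at an adjusted p of 0.05, all 40 members were called higher in f3h in leaf, where 17.9% of 22438 tested genes were called higher and 18.6% lower. All 40 were also called higher in root, where 24.9% of 24583 tested genes were called higher and 25.4% lower. In every member the 3 f3h libraries lay above the 3 WT libraries in both organs, as they did for 25.5% of genes at the level minimum in leaf and 34.2% in root. The rule used these same contrasts, so nothing is read from the members' counts. The ratio of 2 itself was reached by 4.38% of genes at the level minimum in leaf and by 1.84% in root.

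MT4A had nearly equal ratios in leaf and root. Its level was 13.99, 28.1 and 27.2 CPM in the WT leaf libraries and 281, 278 and 272 CPM in the f3h leaf libraries. In root it was 36.6, 40.9 and 43.0 CPM in WT and 535, 480 and 448 CPM in f3h. The ratios were therefore 11.8 in leaf and 12.0 in root, and the lowest f3h library of either organ was far above the highest WT library. WT leaf replicate 1 was the lowest of all 12 libraries, and without it the leaf ratio was 9.87. MT4A belongs to a multigene family, and how reads that match several genes were counted is not given in the sources used here, so its separate value is uncertain to that extent.

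The other listed metallothioneins did not follow MT4A in both organs. The family was gathered after the members had been seen, and its other loci were tested in the same fits. In leaf, 3 of 6 rose and none fell, beside 17.9% and 18.6% of all genes tested. MT2C (Os01g0974200) went from 144 ± 27.3 to 389 ± 13.2 CPM (SD, n = 3; log2 fold change 1.46) and MT2A (Os01g0149800) from 409 ± 51.0 to 714 ± 51.7 CPM (0.84). Without WT leaf replicate 1, 3 rose and 2 fell, but over all genes 5721 then rose and 5423 fell, against 4021 and 4167 with it. In root none of 7 rose and 4 fell, beside 24.9% and 25.4%, MT2A and MT2C among them at log2 fold changes of -0.26 and -0.31. The median log2 fold change of these other loci was 0.41 in leaf and -0.31 in root, against -0.02 and 0.01 over all genes tested.

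Os01g0537250 was the second member with both ratios above 8. Its level was 4.49, 6.82 and 9.08 CPM in leaf in WT, and 111, 113 and 116 CPM in f3h. Its root level was 16.3, 13.9 and 13.0 CPM in WT and 178, 165 and 175 CPM in f3h. The f3h libraries of each organ lay within a narrow band, the WT leaf libraries were spread more widely for their level, and the groups did not overlap. The ratios were 15.6 in leaf and 11.6 in root.

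Os07g0429700 had the largest root ratio, 15.4, beside a leaf ratio of 6.68. Its level was 73.8, 74.5 and 69.5 CPM in WT root, against 1102, 1049 and 1214 CPM in f3h root. In leaf it was 39.3, 45.5 and 55.3 CPM in WT and 340, 278 and 327 CPM in f3h. The groups were far apart in both organs, and the f3h root libraries were all above the f3h leaf libraries. In WT the edgeR log2 fold change of root over leaf was 0.07 ± 0.136 (SE). Os07g0110000 and Os05g0100100 had the same order, with root ratios of 7.84 and 6.604 and leaf ratios of 4.20 and 3.77, the latter at low levels of 1.54 ± 0.761 CPM in WT leaf and 4.23 ± 1.42 CPM in WT root.

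Os12g0622900 was at 1.203 to 2.34 CPM in all 6 WT libraries, at 7.95 to 9.33 CPM in f3h leaf and at 10.8 to 14.01 CPM in f3h root. Its root ratio was 6.13 and its leaf ratio 3.24. Os08g0120600 was at 3.69 to 9.17 CPM in the WT libraries, at 19.0 to 20.2 CPM in f3h leaf and at 27.1 to 28.9 CPM in f3h root, with ratios of 2.60 and 4.07. In both genes every f3h library lay above every WT library. Os01g0878000 and Os05g0390932 completed the 12 members with the highest smaller ratio, with leaf ratios of 2.50 and 3.20 and a root ratio of 2.34 in each.

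A second pattern was a gene abundant in WT root and nearly silent in WT leaf, with a far larger ratio in leaf. Os12g0428000 was at 2.69, 2.63 and 3.02 CPM in leaf in WT, and at 68.8, 76.6 and 67.8 CPM in f3h, the largest leaf ratio of the members at 21.8. In root it was at 315, 285 and 291 CPM in WT and at 671, 712 and 693 CPM in f3h, a ratio of 2.33. In CPM by library total its root level was 107 times its leaf level in WT and 9.74 times in f3h, and after TMM scaling it was 71.4 and 6.19 times.

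Os10g0210500 and Os01g0124401 had the same form. Os10g0210500 went from 0.513, 1.34 and 1.66 CPM in WT leaf to 21.8, 21.1 and 20.8 CPM in f3h leaf, and from 62.6 ± 2.29 to 130 ± 5.12 CPM in root (SD, n = 3). Os01g0124401 went from 1.60, 1.999 and 2.25 CPM to 27.3, 26.6 and 25.6 CPM in leaf, and from 263 ± 12.5 to 547 ± 22.7 CPM in root. The leaf ratios were 13.0 and 11.03 and the root ratios 2.07 and 2.08, and for both genes the f3h leaf libraries were still below every WT root library.

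Os04g0688300 and Os03g0823400 also had leaf ratios above 10 and, in WT, higher levels in root. Os04g0688300 was at 2.31, 1.91 and 1.54 CPM in WT leaf, against 32.0, 31.1 and 28.3 CPM in f3h leaf, with root means of 120 ± 3.69 and 509 ± 25.3 CPM. Os03g0823400 was at 22.4, 23.6 and 21.9 CPM in leaf in WT, and at 238, 249 and 241 CPM in f3h, with root means of 148 ± 7.53 and 346 ± 14.4 CPM. For Os03g0823400 the f3h leaf libraries were above the WT root libraries, so that the leaf in f3h exceeded the root in WT. Os03g0604566 had a like leaf ratio of 9.15, from 3.98, 10.4 and 10.2 CPM to 80.0, 76.0 and 81.4 CPM, with a WT root level of 19.8 ± 2.88 CPM, and without WT leaf replicate 1 the leaf ratio was 7.36.

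**Figure D2:**
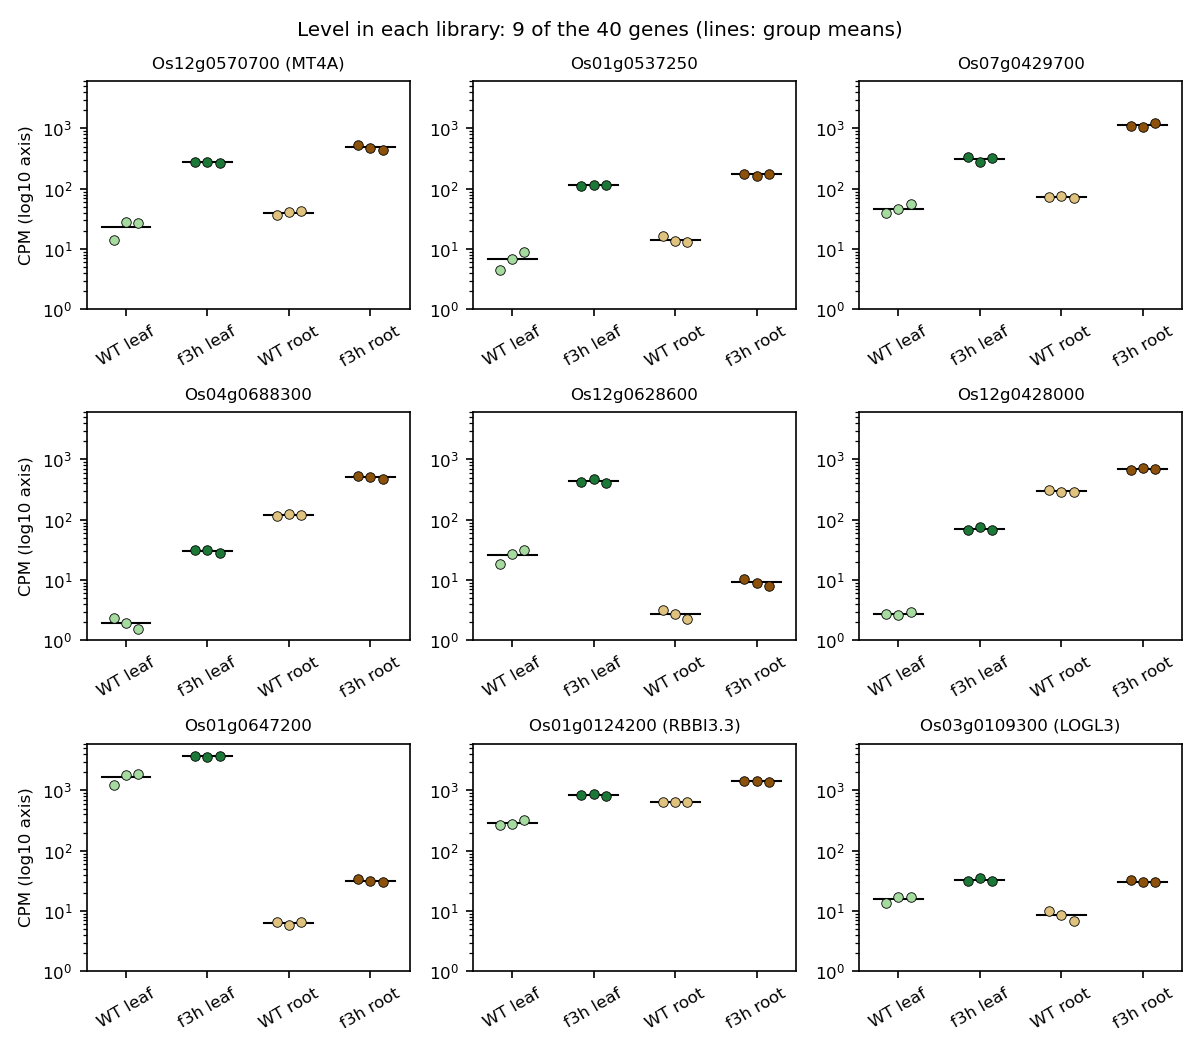
Level of 9 members in each library, in CPM on a log10 axis, with points for the 3 libraries of each group and lines for the group means. MT4A, Os01g0537250 and Os07g0429700 are high in f3h in both organs, Os04g0688300 and Os12g0428000 are lowest in WT leaf, and Os12g0628600 and Os01g0647200 are low in root in both genotypes.

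Of the members on the iron acquisition list, Os01g0647200 was far higher in leaf than in root. It was at 1233, 1832 and 1881 CPM in WT leaf, against 3732, 3593 and 3690 CPM in f3h leaf. The root libraries were at 6.56, 5.93 and 6.50 CPM in WT and at 34.5, 31.1 and 30.3 CPM in f3h. The leaf ratio of 2.23 was the smaller, and without WT leaf replicate 1, its lowest leaf library, it was 1.98, just below the threshold. The root ratio was 4.76. The summed photosynthesis genes in root came to 0.0299% of their leaf level in WT and 0.263% in f3h, and the same shares of this gene's own leaf level came to 35.7% of its difference in root. With those shares taken off, the root ratio was 3.60.

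Os03g0237100, on the same list, was higher in root in WT. It was at 1.96, 2.28 and 2.28 CPM in leaf in WT, and at 4.76, 5.17 and 5.82 CPM in f3h, a ratio of 2.15. In root it was at 8.49, 8.93 and 5.86 CPM in WT and at 25.4, 25.3 and 28.2 CPM in f3h, a ratio of 3.24. The genotypes did not overlap in either organ. NAS1 and NAS2, which the rule set aside, had leaf ratios of 9.68 and 13.8 and root ratios of 11.6 and 15.5.

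The reference held the names of 19 of the 44 loci of the iron list. Of its other genes, 13 of 34 (38.2%) rose and 2 (5.88%) fell in leaf, beside 17.9% and 18.6% of all genes tested. In root 11 of 37 (29.7%) rose and 13 (35.1%) fell, beside 24.9% and 25.4%. The medians were 0.13 and -0.10 on the log2 scale, against -0.02 and 0.01 over all genes tested. Without WT leaf replicate 1, 17 of 36 rose and 5 fell in leaf, but over all genes 5721 then rose and 5423 fell, against 4021 and 4167 with it. NRAMP1 (Os07g0258400), a metal transporter, rose in both organs, from 152 ± 19.8 to 341 ± 24.5 CPM in leaf and from 121 ± 1.44 to 168 ± 11.4 CPM in root (SD, n = 3), but its root ratio stayed below the rule's threshold. IRT2 (Os03g0667300), an iron transporter, rose from 3.18 ± 1.25 to 16.5 ± 0.236 CPM in leaf and from 65.3 ± 2.51 to 93.5 ± 5.98 CPM in root. NAAT1 (Os02g0306401), the aminotransferase of phytosiderophore synthesis, rose in root at a log2 fold change of 2.15 and fell in leaf at -0.45. The 13 genes of the list that fell in root are not named here, so these examples do not stand for the list in root. Os07g0142100 missed the rule only by its level in WT root, 0.431 ± 0.292 CPM, and was at 1164 ± 259 CPM in WT leaf, against 4349 ± 157 CPM in f3h leaf.

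The members of the methionine salvage list were Os06g0486800 and Os09g0453800, and both had WT levels of 77.9 to 139 CPM in leaf and root. Whether either encodes an enzyme of the cycle itself was not checked. Os06g0486800 was at 78.9, 87.7 and 80.0 CPM in leaf in WT, and at 176, 167 and 185 CPM in f3h. The root levels were 139, 130 and 136 CPM in WT and 314, 311 and 316 CPM in f3h. The ratios of 2.14 and 2.33 were close to each other, and the spread within each group was small beside the difference.

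Os09g0453800 was at 103, 109 and 108 CPM in WT leaf, against 222, 230 and 213 CPM in f3h leaf. Its root levels were 85.3, 77.9 and 85.7 CPM in WT and 248, 243 and 236 CPM in f3h. The leaf ratio was 2.07 and the root ratio 2.91, and the genotypes did not overlap in either organ. Both genes stayed members without any 1 of the 12 libraries.

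Of the other genes of the methionine salvage list, 6 of 11 rose and 1 fell in leaf, beside 17.9% and 18.6% of all genes tested. In root 6 of 11 rose and 2 fell, beside 24.9% and 25.4%, with median log2 fold changes of 0.58 and 0.57. Without WT leaf replicate 1, 8 of 11 rose and 2 fell in leaf, in the fit where 5721 of all genes rose and 5423 fell. MTK1 (Os04g0669800), the kinase that acts on methylthioribose, rose from 44.1 ± 6.09 to 74.5 ± 1.58 CPM in leaf and from 97.8 ± 3.66 to 149 ± 3.88 CPM in root. IDI2 (Os11g0216900), an enzyme of the methionine salvage cycle, rose from 83.9 ± 9.31 to 123 ± 5.77 CPM in leaf and from 15.6 ± 1.49 to 35.6 ± 4.56 CPM in root. ARD1 (Os10g0419400), a dioxygenase late in the cycle, fell in root at a log2 fold change of -0.25 and rose in leaf from 0.465 ± 0.394 to 2.24 ± 0.670 CPM.

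Os12g0628600, the member of the pathogenesis-related list, had a leaf ratio of 16.5. It was at 18.7, 27.4 and 31.4 CPM in leaf in WT, and at 423, 475 and 406 CPM in f3h. In root it was at 3.21, 2.78 and 2.26 CPM in WT and at 10.6, 9.10 and 8.09 CPM in f3h, a ratio of 3.01. The f3h root libraries were below the WT leaf libraries. The shares of its leaf level equal to those of the photosynthesis genes came to 17.4% of its difference in root, and the root ratio with them taken off was 2.66.

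Most other genes of that list fell. In leaf, 7 of 9 fell and 1 rose, beside 18.6% and 17.9% of all genes tested, and in root 6 of 9 fell and 2 rose, beside 25.4% and 24.9%, with medians of -1.61 and -0.79 on the log2 scale. Without WT leaf replicate 1, 8 of 10 fell and 1 rose in leaf, in the fit where 5423 of all genes fell and 5721 rose. PBZ1 (Os12g0555500), a pathogenesis-related protein of the PR-10 class, fell in leaf from 147 ± 23.8 to 44.5 ± 3.68 CPM and rose in root from 14.8 ± 2.50 to 34.1 ± 3.42 CPM. WRKY71 (Os02g0181300), a transcription factor, fell in root (log2 fold change -1.94), whereas in leaf its change of -0.16 missed the threshold.

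**Figure D3:**
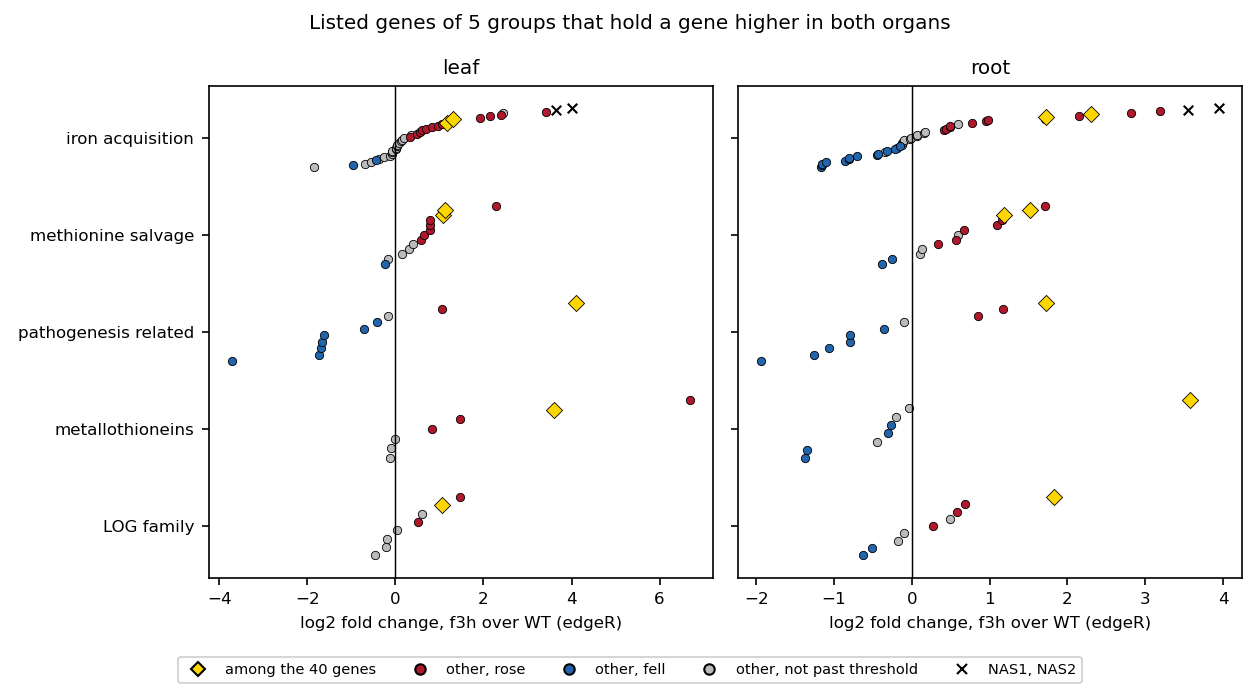
Log2 fold change of f3h over WT in leaf (left) and root (right) for the tested genes of 5 lists, 1 point per gene, with the members as diamonds, NAS1 and NAS2 as crosses and the other genes coloured by the edgeR call. The members lie on the side of higher levels in f3h in both organs, as the rule requires, though not always at the upper end of their lists. In root 4 other metallothioneins fell, and most other pathogenesis-related genes fell in both organs.

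RBBI3.3 differed by similar ratios in both organs. It was at 265, 276 and 323 CPM in WT leaf, against 827, 859 and 811 CPM in f3h leaf, and in root at 637, 651 and 636 CPM in WT and at 1424, 1447 and 1367 CPM in f3h. The ratios were 2.89 in leaf and 2.203 in root, and the groups were well apart. Os01g0124401, described above for its leaf ratio of 11.03, is the next locus in the table, and these were the only members within 1000 in locus number of another member. Of the loci just before them, Os01g0124100 had ratios of 2.98 in leaf and 1.28 in root.

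Os01g0124000 and Os01g0123900, further along the same row of loci, had root ratios of 4.77 and 6.48 and leaf ratios of 1.23 and 1.71. Their f3h root levels of 12.7 and 11.7 CPM were 0.299% and 0.204% of their f3h leaf levels, beside 0.263% for the summed photosynthesis genes. Reads may be shared among similar genes of such a row, and the strand setting of the counting is not given, so overlapping neighbours cannot be separated either. Around all members, 108 other loci at the level minimum lay within 3 rows of the table. Of these, 6 (5.56%) reached the leaf ratio and 5 (4.63%) the root ratio, beside 4.38% and 1.84% of all genes at the level minimum. Os01g0124000 and Os01g0123900 were among the 5, and clustering was not tested.

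LOGL3 lay just inside the threshold. It was at 13.9, 17.1 and 16.97 CPM in leaf in WT, and at 31.2, 34.9 and 31.5 CPM in f3h, a ratio of 2.005, and without WT leaf replicate 1 the ratio was 1.88. The root libraries were at 10.2, 8.49 and 6.97 CPM in WT and at 32.2, 30.6 and 30.1 CPM in f3h, a ratio of 3.48. The genotypes did not overlap in either organ. The other LOG genes were gathered after the members had been seen. In leaf 2 of 7 rose and none fell, beside 17.9% and 18.6% of all genes tested, and in root 3 of 8 rose and 2 fell, beside 24.9% and 25.4%, with medians of 0.03 and 0.08 on the log2 scale. Without WT leaf replicate 1, 2 rose and 2 fell in leaf, in the fit where 5721 of all genes rose and 5423 fell. LOGL1 (Os01g0708500) rose in leaf from 3.09 ± 0.338 to 8.33 ± 0.879 CPM and fell in root from 91.6 ± 2.06 to 65.4 ± 2.29 CPM.

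Beside LOGL3, Os01g0615050 with a root ratio of 2.01 and Os05g0305200 with a leaf ratio of 2.01 were the members nearest to the threshold. Os01g0615050 had a leaf ratio of 4.45 and Os05g0305200 a root ratio of 4.56. Just outside were Os07g0237900, with ratios of 1.995 in leaf and 2.01 in root, Os09g0545300 with 1.995 and 2.68, and Os04g0688100 with 4.31 and 1.98. Os04g0688100 lies 2 rows from the member Os04g0688300 and was at 1106 CPM in WT root, against 2188 CPM in f3h root.

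Many members had low counts in WT. The WT mean, which is not scaled by gene length, was below 10 CPM in 26 members in leaf and in 20 in root, and its median over members was 5.28 CPM in leaf and 9.64 CPM in root, against 18.8 and 23.8 CPM over all genes at the level minimum. At such levels the ratio depends on the pseudocount, which lowers the ratio of weakly expressed genes. With a pseudocount of 1 CPM, 30 of the 40 remained, and with none all 40 remained among 48.

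WT leaf replicate 1 bears on the leaf ratios. It was the highest of the 3 WT leaf libraries in 9 of 40 members, against 44% of genes at the level minimum, and its median log2 difference from the mean of the other WT leaf libraries was -0.28 over members and 0.01 over all those genes. Without this library the leaf ratio was lower in 29 members and higher in 11, its median was 2.54 and its range 1.77 to 21.5. The rule was then met by 33 genes, of which 28 were among the 40. Of the 12 lost, 10 fell below the leaf ratio, 9 of them to no lower than 1.8, and Os08g0536341 and Os01g0615050 fell below 1 CPM in WT leaf. No leaf ratio moved by more than 1.44 times.

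**Figure D4:**
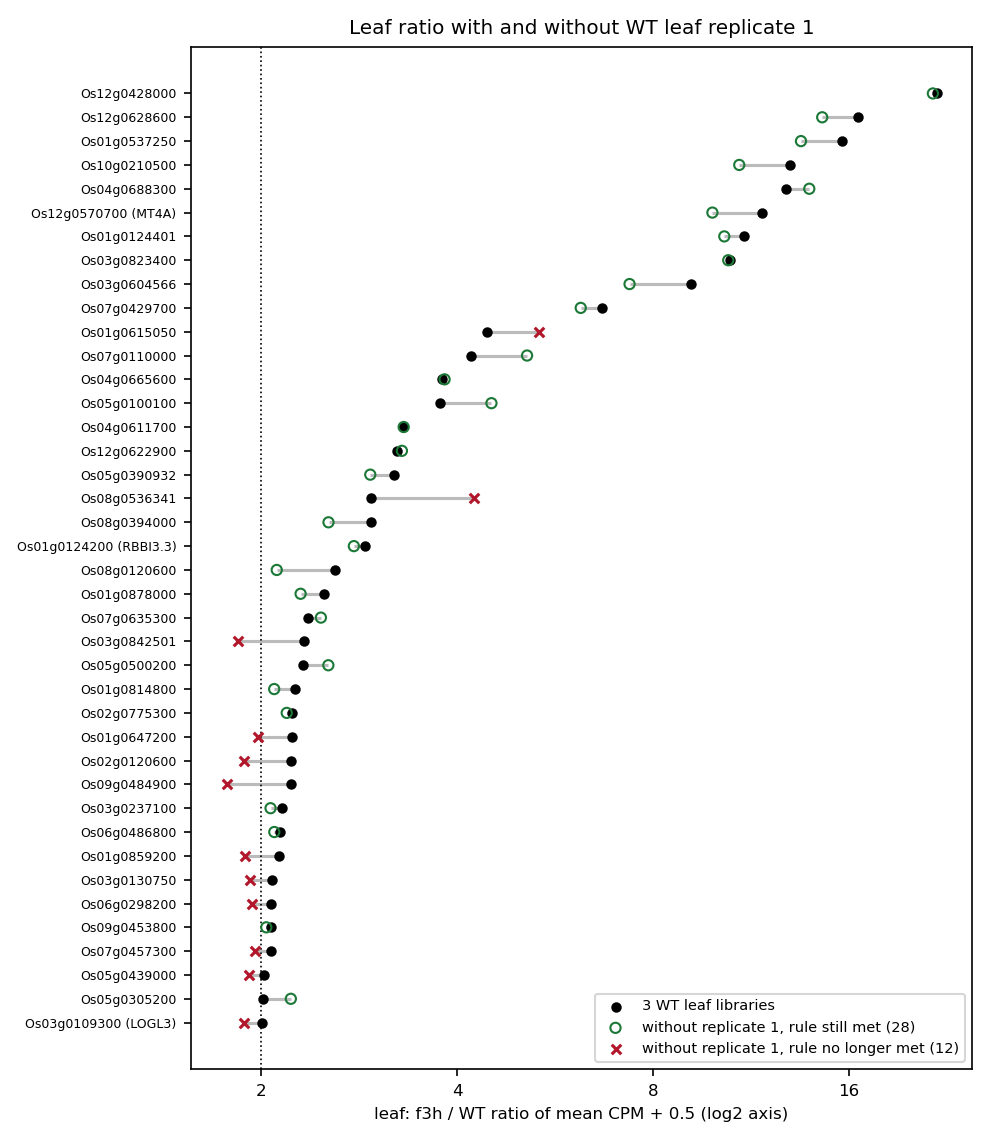
Leaf ratio of each member on a log2 axis with all 3 WT leaf libraries (black points) and without WT leaf replicate 1 (circles where the rule was still met, crosses where it was not). The dotted line marks the ratio of 2. The 12 crosses are mostly members close to the line, among them LOGL3 and Os01g0647200, while the 10 members with the highest leaf ratios all remained.

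Over all libraries, 24 members met the rule whichever library was left out, and 16 missed it without some library. MT4A, Os01g0537250, Os07g0429700, Os07g0110000 and Os12g0628600 met it under all 22 other settings tried, a ratio of 3 and a minimum of 2 CPM included. Os01g0615050 met it under 11 settings, the fewest. The shares of leaf level given by the photosynthesis genes came to under 1% of the difference in root in 36 members and to 1 to 5% in 1. Beside Os01g0647200 and Os12g0628600 the third above 5% was Os01g0859200, at 9.43%, whose root ratio was 2.05 as measured and 1.95 with the share taken off. For these 3 genes the part of leaf RNA in the root difference was not tested further. In bulk organs, a change in the number of cells of a type and a change of RNA per cell cannot be told apart, and 10 cell cycle genes summed to 215 to 218 CPM in WT root and 319 to 348 CPM in f3h root.

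The rule did not compare WT root with WT leaf, and this comparison was tested. Both WT means entered the rule, as the base of a ratio and through the level minimum, so the test is not independent. By edgeR, with an adjusted p of 0.05 and a required difference of 1 on the log2 scale, 11 members were higher in root, 10 were higher in leaf and 19 passed in neither direction. Over all 25229 genes tested, 29.9% were higher in root and 22.9% higher in leaf, and among genes at the level minimum the shares were 16.8% and 22.2%. The median log2 fold change of root over leaf was 0.06 over members and -0.11 over genes at the level minimum. The WT leaf libraries are also the base of the leaf ratio, so a gene low in WT leaf tends to be high in both measures. For the same reason, a gene low in WT root tends to a higher root ratio and to a value further towards leaf.

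The scaling matters for this comparison, since leaf and root libraries differ in their most abundant transcripts. Scaling by library totals moved the median gene by 0.57 on the log2 scale towards root, and upper quartile scaling by 0.22. The order of levels between organs given in CPM depends on it too. Every f3h root library lay above every f3h leaf library in 25 members with library totals, in 14 after TMM scaling and in 18 after upper quartile scaling. The share of all genes in this order is not given here, so these counts do not set members apart from other genes. With library totals 15 members were higher in root and 5 higher in leaf in WT. Over all genes tested the counts were then 10214 and 4232, against 7548 and 5777 with TMM. Without WT leaf replicate 1 the numbers were 12 and 10 for members and 7819 and 5860 for all genes tested.

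The 5 most root-biased members had WT leaf means below 3 CPM, as did other members that were not root-biased. The log2 fold change of WT root over WT leaf was 6.50 ± 0.152 (SE) for Os01g0124401, at an edgeR adjusted p of 2.9e-09. It was 6.17 ± 0.123 for Os12g0428000 and 5.40 ± 0.153 for Os04g0688300. For Os10g0210500 it was 5.16 ± 0.302 and for Os01g0615050 it was 3.80 ± 0.294, the latter at an edgeR adjusted p of 3.1e-06. In all 5 every WT root library lay above every WT leaf library, and the ratio of root to leaf was smaller in f3h than in WT.

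The 5 most leaf-biased members began with Os01g0647200, at a log2 fold change of -8.59 ± 0.227 (SE) and an edgeR adjusted p of 4.77e-09. Os01g0859200 followed at -4.92 ± 0.245, from 99.6 ± 22.02 CPM in WT leaf and 4.87 ± 1.21 CPM in WT root. Os12g0628600 was at -3.80 ± 0.244, Os08g0394000 at -1.85 ± 0.262 and Os07g0635300 at -1.61 ± 0.182. In CPM by library total, the root level of Os01g0647200 was 0.00384 times the leaf level in WT and 0.00871 times in f3h, and for Os07g0635300 the same values were 0.486 and 0.466.

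The named members lay between these ends. LOGL3 was higher in leaf, with a log2 fold change of -1.47 ± 0.183 and an edgeR adjusted p of 7.84e-05. RBBI3.3 was higher in root by 0.59 ± 0.107 at an adjusted p of 9.14e-04 in the same edgeR test, short of the required fold change. For MT4A the value was 0.23 ± 0.239, with an edgeR adjusted p of 0.402, and it was -0.05 without WT leaf replicate 1. Os09g0453800 was higher in leaf by a log2 fold change of -0.93 ± 0.0898, also short of the limit, and Os06g0486800 had 0.15 ± 0.0889.

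**Figure D5:**
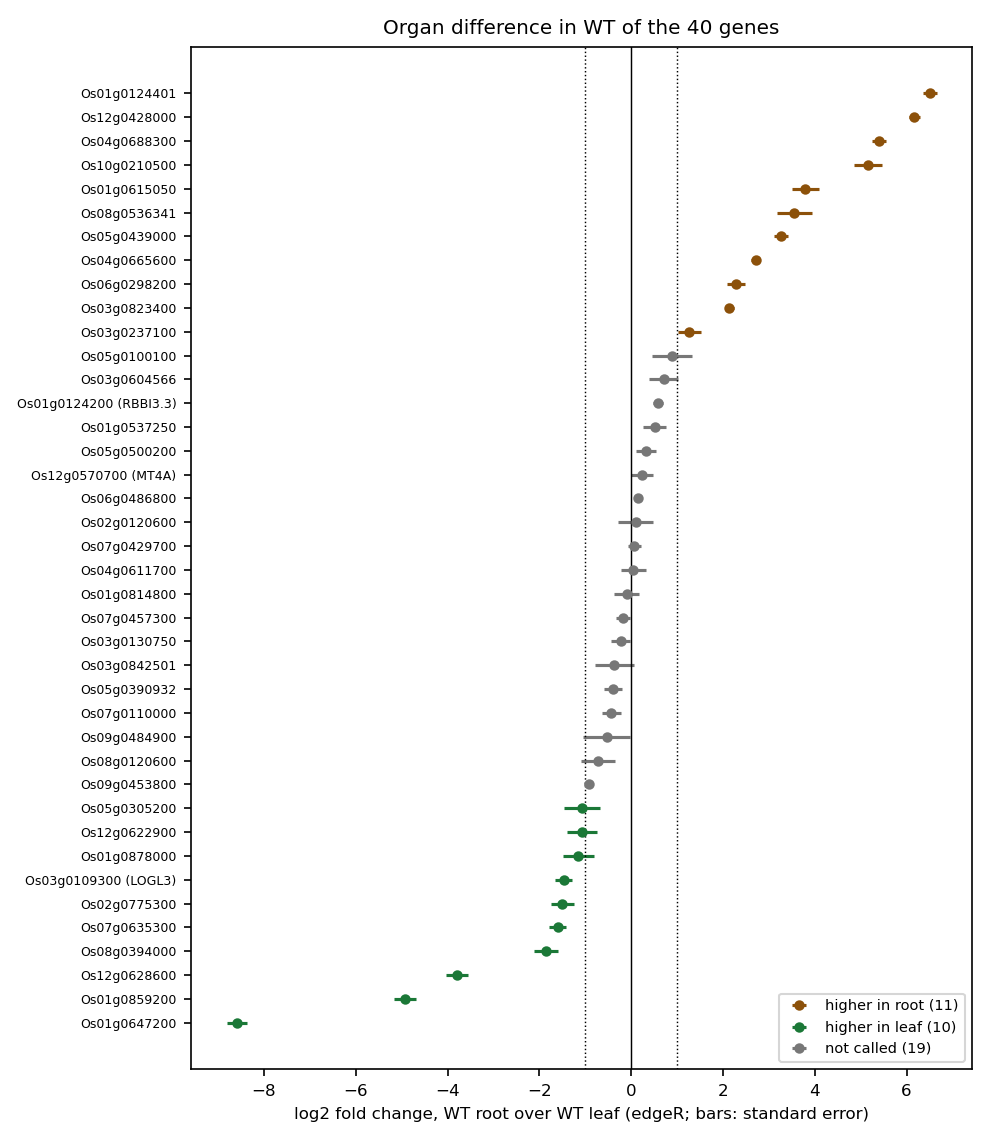
Log2 fold change of WT root over WT leaf for each member, with its standard error from 3 libraries per organ, coloured by the edgeR call. Dotted lines mark the required fold change of 2 in either direction. The members spread from -8.59 for Os01g0647200 to 6.50 for Os01g0124401, with 11 higher in root, 10 higher in leaf and 19 not called.

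Set side by side, the organ in which a member was higher in WT and its f3h ratios gave the following values. The 11 members higher in root had leaf ratios of 2.02 to 21.8 with a median of 4.45, and root ratios of 2.01 to 4.23 with a median of 2.13. The 10 members higher in leaf had leaf ratios of 2.005 to 16.5 with a median of 2.296, and root ratios of 2.05 to 6.13 with a median of 2.85. In the 19 members with no call the medians were 2.60 and 2.33. Leaf ratios of at least 10 occurred in 5 members higher in root, 1 higher in leaf and 2 with no call. The classes and the ratios share the WT libraries, and the differences between the classes were not tested.

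The 5 members whose leaf ratio most exceeded the root ratio were Os12g0428000, Os10g0210500, Os12g0628600, Os01g0124401 and Os03g0823400, of which 4 were higher in root in WT. The 5 whose root ratio most exceeded the leaf ratio were Os07g0429700, Os05g0305200, Os01g0647200, Os12g0622900 and Os07g0110000, of which none was higher in root in WT. Os05g0305200 was at 1.30 ± 0.373 CPM in root in WT, and at 6.67, 5.48 and 10.95 CPM in f3h, so its root ratio of 4.56 rests on low and uneven values. In leaf it was at 2.28, 1.199 and 2.04 CPM in WT and at 4.84, 3.34 and 4.44 CPM in f3h.

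The remaining members had ratios of 2.02 to 3.80 in leaf and 2.03 to 2.70 in root. Os04g0665600 went from 102 ± 4.19 to 211 ± 2.41 CPM in root (SD, n = 3), and Os05g0439000 went from 45.6 ± 1.81 to 110 ± 2.69 CPM in root. Os08g0394000 went from 16.1 ± 4.70 to 48.5 ± 4.15 CPM in leaf. Os06g0298200, Os07g0457300, Os03g0130750 and Os02g0120600 had leaf ratios of 2.07 to 2.23 and root ratios of 2.04 to 2.13, and each missed the rule without WT leaf replicate 1. Os03g0842501, Os04g0611700, Os02g0775300, Os09g0484900, Os05g0500200 and Os01g0814800 had WT means of 1.78 to 6.80 CPM over both organs and f3h means of 4.57 to 14.6 CPM.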

How the data were processed

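RNA was sequenced from leaf and root of WT and f3h rice, 3 libraries per group and 12 in all. The table that the authors deposited holds raw read counts per gene, not normalized. The tools named in the submitters' processing notes are fastp, HISAT2, featureCounts and DESeq. For these the sources used here state no version, genome build, annotation or strand setting. Totals of 23740780 to 37821918 counts per library limit the precision of low levels.

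CPM was computed by library total, and the membership rule was applied to group means with a pseudocount of 0.5 CPM. The members, the gene lists and the tests were chosen with earlier results of these data known. The metallothionein and LOG families and a Bowman-Birk list were added after the members had been seen. The Bowman-Birk list held 1 locus, the member RBBI3.3. A heat shock list that held no member was removed after the data had been seen. The test was edgeR 4.0.16 under R 4.3.3 (filterByExpr, TMM, quasi-likelihood test, Benjamini-Hochberg adjustment over all genes tested, adjusted p of 0.05), on the 6 libraries of each comparison. For WT root against WT leaf a difference of at least 1 on the log2 scale was also required. Standard errors derive from the F statistic. Exact permutation of 3 libraries against 3 reaches a two-sided p of 0.1 at best and was not used. The procedure was tested on simulated counts.

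Named members were, by rule, the 12 with the highest smaller ratio, the 6 with the highest mean CPM, the 3 nearest to the threshold on each side, the 5 with the largest difference between organs' ratios in each direction, the 5 most biased to each organ in WT, all on a list or named in the reference, and neighbouring members. Others were named after their values were seen. The reference of gene names (RefSeq, assembly ASM3414082v1) carries no Os loci, so a name was used only where the reference held it within 1 Mb of the place implied by the locus identifier. Only the 407 pairs of name and locus written for the gene lists were checked. Of these, 253 names were held on the chromosome and 249 were used. No sequence or coordinate is printed, and gene length was not used here.

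Alternatives were other scalings, pseudocounts, level minimums and ratios, no count filter, a fit on all 12 libraries, a replicate block, limma voom (limma 3.58.1), DESeq2 1.42.0, leaving out each library, and, added after seeing the data, taking the photosynthesis genes' share of leaf level off the root values and comparing levels between organs after TMM and upper quartile scaling.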

Additional observations from a re-analysis of the deposited data

Results flagged for a closer look

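In 6 named genes of the lists that hold members, but not themselves members, every f3h library lay on one side of the WT libraries in leaf and on the other side in root. The leaf log2 fold change exceeded that in root by 1.099 for MT2A (Os01g0149800), by 1.76 for MT2C (Os01g0974200), by 2.52 for ARD1 (Os10g0419400) and by 1.98 for LOGL1 (Os01g0708500). For NAAT1 (Os02g0306401) and PBZ1 (Os12g0555500) the leaf value less the root value was -2.60 and -2.87. These genes were noticed among those of their lists, and the differences between organs were not tested. The share of all genes with opposite order in leaf and root is not given here, so the 6 are not shown to be unusual. All f3h libraries lay above all WT libraries in 25.5% of genes at the level minimum in leaf and in 34.2% in root.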

How the results depend on the processing

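The number of members was 40. It was 292 with a ratio of 1.5 and 8 with a ratio of 3, and 30 to 51 under the other settings of scaling, pseudocount, level minimum and averaging. Leaving out each library gave 33 to 44 members. Of the 40, 23 were kept under every setting apart from the ratio of 3 and the minimum of 2 CPM. Counts of genes called in f3h against WT stayed within 1.5 times of the reported counts under all alternatives run, with 2878 to 5721 higher and 2891 to 5423 lower in leaf without single libraries. Of the members, 5 in place of 10 were higher in WT leaf than in WT root with library totals, and over all genes tested 4232 in place of 5777. Under that scaling 7 members with no call changed sign in WT root over WT leaf, to log2 fold changes of 0.13 (Os07g0110000), 0.18 (Os05g0390932), 0.20 (Os03g0842501), 0.029 (Os09g0484900), 0.39 (Os07g0457300), 0.34 (Os03g0130750) and 0.47 (Os01g0814800). Upper quartile scaling gave 0.039 for Os07g0457300 and 0.11 for Os01g0814800.

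Without each WT library in turn, the log2 fold change of WT root over WT leaf was -0.0502 to 0.38 for MT4A (Os12g0570700), -0.0672 to 0.21 for Os07g0429700, -0.0829 to 0.17 for Os04g0611700, -0.22 to 0.58 for Os02g0120600 and -0.25 to 0.050 for Os01g0814800. These genes had no call in any direction, and the cause was not tested. No called value changed sign. Same-numbered libraries of WT and f3h in each organ, and of WT leaf and WT root, did not deviate together (r of -0.08 to 0.15). The numbers were therefore not taken as pairs, and f3h leaf against f3h root was not checked. With the replicate block 3801 genes were higher and 3648 lower in leaf, 6035 and 6190 in root, and 11 members were higher in root and 9 in leaf in WT, Os05g0305200 losing its call at -1.05. Members below 10 CPM in WT are those that depth limits most.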
